A study of Mus musculus with 8 samples.

Results

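The genes described here encode the nuclear subunits of the mitochondrial respiratory chain and of ATP synthase, with some assembly factors of complex I. Members were taken by name: a RefSeq symbol beginning with Nduf, Uqcr, Cox4 to Cox8 or Atp5, or any of Sdha, Sdhb, Sdhc and Sdhd. The array carried 93 such genes among 20887 genes, and 89 of them were among the 13200 genes tested because their probe was well above background on at least 2 of 8 arrays. Cox7b2, Cox8b, Cox8c and Ndufa4l2, isoforms of cytochrome oxidase subunits and of Ndufa4, were not well above background on any array. The tested members comprised 45 genes counted with complex I (7 core subunits, 30 accessory subunits and 8 assembly factors), 4 of complex II, 8 of complex III, 15 of complex IV and 17 of complex V. All but Cox6a2 were well above background on all 8 arrays.

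Gene expression had been measured in 2 fractions of mouse bone marrow, LSK and MEP. LSK cells are lineage-negative, Sca-1 positive and c-Kit positive and contain the haematopoietic stem cells, and MEP are the progenitors of megakaryocytes and red cells. Marrow of C57BL/6 mice of 4 genotypes was transplanted into lethally irradiated wild-type CD45.1+ recipients, so some host cells could persist. The donors were Cre-ERT2 (called WT), Ezh2flox/flox;Cre-ERT2 (Ezh2Δ/Δ), JAK2V617F;Cre-ERT2 (JAK2V617F) and JAK2V617F;Ezh2flox/flox;Cre-ERT2 (JAK2V617F/Ezh2Δ/Δ, the double mutant). All of them, controls included, carried Cre-ERT2, a recombinase that tamoxifen activates. Ezh2 was deleted 4 weeks after transplantation and cells were sorted at 2 months. Ezh2 is the histone H3 methyltransferase of the polycomb complex PRC2, and JAK2V617F is the constitutively active kinase of myeloproliferative neoplasms.

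There was 1 array for each of the 8 groups and thus no replicate within a group. Effects were therefore averaged over 4 matched pairs of arrays, and their errors are standard errors (SE) of that fit, in which any interaction counts as spread. Whether the RNA came from 1 mouse or several is not given in the sources used here. A level is the log2 signal minus the 75th percentile of the array, differences are in log2 units unless given as a fold, and adjusted p-values are from limma with Benjamini-Hochberg adjustment over all 13200 genes. In bulk samples, more cells of a type and more RNA per cell cannot be told apart. Each array had 39.8% to 48.8% of its probes above background, and no probe was saturated. The stem and multipotent cell markers Flt3 and Ly6a (Sca-1 itself, which defines the LSK gate) were at 3.30 or above on every LSK array and at -2.79 or below on every MEP array, and the blood group gene Rhd was at -2.37 or below in LSK and at 5.47 or above in MEP. Ezh2 was at 3.33, 3.20, 3.65 and 3.41 in WT, Ezh2Δ/Δ, JAK2V617F and double mutant LSK and at 3.96, 3.86, 4.04 and 3.43 in the MEP in that order. Nothing in the files says which exon this probe covers, so its levels do not check the deletion. The X-inactivation RNA Xist was at 1.39 or above on the 4 arrays with Ezh2 deleted and at -3.24 or below on the others, and the Y-linked gene Eif2s3y ran the other way, so Ezh2 status and the sex of the marrow cannot be told apart.

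The respiratory chain sits in the inner mitochondrial membrane. Complex I (NADH dehydrogenase) and complex II (succinate dehydrogenase, shared with the citric acid cycle) pass electrons to coenzyme Q, complex III passes them to cytochrome c, and complex IV (cytochrome c oxidase) to oxygen. Complexes I, III and IV pump protons, and complex V (ATP synthase) uses the gradient to make ATP. Quiescent stem cells are known for relying little on respiration, and red cell precursors are known for a high mitochondrial activity, which includes steps of haem synthesis.

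The nuclear genes of the chain have long been studied as targets of NRF1, of ETS factors such as GABP, and of YY1. Promoters are shown for the genes of complexes I, II, III and V with the largest difference between MEP and LSK, and for an ordinary and a tissue-restricted subunit of complex IV. Each is the 250 bases before the gene's start from RefSeq (build GRCm38.p6), written 5′ to 3′ on the gene's strand. Capitals mark matches to GCGCNTGCG (NRF1 core) or CCGGAAG (ETS) on either strand, and AAGATGGCG (YY1) was not found in these windows. Overlapping matches run together.
Ndufaf4 (chr4:24897833-24898082, plus strand): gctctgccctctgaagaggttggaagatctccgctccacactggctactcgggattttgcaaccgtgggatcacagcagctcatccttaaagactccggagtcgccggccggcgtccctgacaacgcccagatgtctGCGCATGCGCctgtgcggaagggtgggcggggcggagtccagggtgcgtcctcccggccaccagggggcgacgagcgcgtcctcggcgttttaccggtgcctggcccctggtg
Sdhd (chr9:50603850-50604099, minus strand): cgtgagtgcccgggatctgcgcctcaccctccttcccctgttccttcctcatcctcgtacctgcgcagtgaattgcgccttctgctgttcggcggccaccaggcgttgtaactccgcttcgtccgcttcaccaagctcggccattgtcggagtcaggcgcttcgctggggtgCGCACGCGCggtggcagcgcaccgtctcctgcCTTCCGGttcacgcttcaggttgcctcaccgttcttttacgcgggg
Uqcr11 (chr10:80406822-80407071, minus strand): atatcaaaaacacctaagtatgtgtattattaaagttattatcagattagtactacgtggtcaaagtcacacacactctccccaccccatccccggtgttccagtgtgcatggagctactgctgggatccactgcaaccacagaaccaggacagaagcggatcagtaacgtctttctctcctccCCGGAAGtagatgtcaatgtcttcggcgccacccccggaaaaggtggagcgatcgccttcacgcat
Atp5g1 (chr11:96075632-96075881, minus strand): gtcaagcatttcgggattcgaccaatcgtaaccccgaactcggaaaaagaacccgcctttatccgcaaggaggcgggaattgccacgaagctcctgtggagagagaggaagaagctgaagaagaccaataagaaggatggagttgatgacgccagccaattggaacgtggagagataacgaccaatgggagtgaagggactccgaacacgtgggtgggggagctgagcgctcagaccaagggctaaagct
Cox6a1 (chr5:115348959-115349208, minus strand): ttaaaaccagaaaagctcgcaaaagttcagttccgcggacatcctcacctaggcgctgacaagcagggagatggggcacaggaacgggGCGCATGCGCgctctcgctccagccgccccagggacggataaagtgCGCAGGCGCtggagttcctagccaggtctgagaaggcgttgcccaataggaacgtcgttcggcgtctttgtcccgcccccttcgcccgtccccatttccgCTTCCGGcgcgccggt
Cox6b2 (chr7:4753095-4753344, minus strand): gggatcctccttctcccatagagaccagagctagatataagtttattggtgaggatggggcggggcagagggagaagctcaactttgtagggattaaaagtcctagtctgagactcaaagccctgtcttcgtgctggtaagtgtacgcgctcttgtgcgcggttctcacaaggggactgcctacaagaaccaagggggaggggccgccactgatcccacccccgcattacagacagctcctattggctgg
The window of Cox6a1 held 3 NRF1 matches and 1 ETS match, that of Ndufaf4 held 2 overlapping NRF1 matches, that of Sdhd 1 of each, and that of Uqcr11 1 ETS match. Those of Atp5g1 and Cox6b2 held none of these letters. Cox6a1 and Cox6b2 are not isoforms of the same subunit. The window of Cox6b1, the ordinary counterpart of Cox6b2, is not printed and held 1 ETS match.

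Promoter windows of 300 bases (250 before to 50 after the start) were given for 74 of the 89 members. The NRF1 core occurred in 35.1% of them (26 members), against 7.12% of all 27025 genes with such a window. ETS letters occurred in 25.7% of members against 9.93% of all genes, and YY1 letters in 10.8% against 1.64%. CACGTG, the E-box, was found in 8.11% of members and 8.09% of all genes. Any of the NRF1, ETS or YY1 letters occurred in 43 members (58.1%) against 16.6% of all genes. The 27025 genes are more than the 20887 on the array and were not limited to detected genes, as the members were. The shares among the 13200 genes tested were not computed, so an excess particular to the chain was not tested. The count was 12 of 15 for complex V and 3 of 11 for complex IV. Members with any of these letters had a median difference between MEP and LSK of 0.62, and members without of 0.61.

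Averaged over the 4 genotypes, the members were higher in MEP than in LSK. Of the 89, 48 (53.9%) were called higher in MEP and 3 lower at an adjusted p under 0.05, where 20.6% of all genes tested were called higher and 20.3% lower. Their median difference was 0.61 (1.53-fold), against 0.12 for all genes, and 85 members had a positive difference. In 33 members the 4 MEP arrays lay wholly above the 4 LSK arrays and in 2 wholly below, where 18.8% of all genes lay above and 17.1% below. Cox6a2, counted among the 3 called lower and the 2 wholly below, was not well above background on any MEP array. The per-array median of the members was 5.81, 5.83, 6.57 and 6.61 in WT, Ezh2Δ/Δ, JAK2V617F and double mutant LSK, and 7.15, 6.92, 6.70 and 7.19 in the corresponding MEP. All 4 MEP medians lay above all 4 LSK medians, with JAK2V617F MEP and double mutant LSK the nearest to each other.

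The size of this result moved with the scaling and with single arrays. Quantile normalization, which gives all arrays the same distribution of signals, left a median difference of 0.33 and 23 calls (20 higher, 3 lower), and the sign of 5 members turned: Sdha, Cox5a and Ndufb11 (-0.04 each), Ndufa13 (-0.07) and Atp5g2 (-0.08). By role its medians were 0.66 for the complex I assembly factors, 0.33 for the core and the accessory subunits, 0.21 for complex II, 0.36 for III, 0.24 for IV and 0.20 for V. The bright end of the arrays, where most members lie, itself differed between fractions: the 95th percentile of the levels of all tested genes was 5.80 to 6.20 in LSK and 6.21 to 6.37 in MEP, and its part in the result was not tested. Leaving out WT LSK left 14 calls, Ezh2Δ/Δ LSK 15, WT MEP 19, Ezh2Δ/Δ MEP 21, double mutant MEP 22 and double mutant LSK 25. Of the 51 calls, 14 held under every setting and every left-out array: Ndufs1, Ndufs7, Ndufa5, Ndufab1, Ndufaf1, Ndufaf4, Ndufaf6, Ndufaf7, Sdhd, Cox6a1, Cox6a2, Cox6b2, Cox7a1 and Atp5g1. The call of Cox6a2 rests on MEP readings not well above background.

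**Figure D1:**
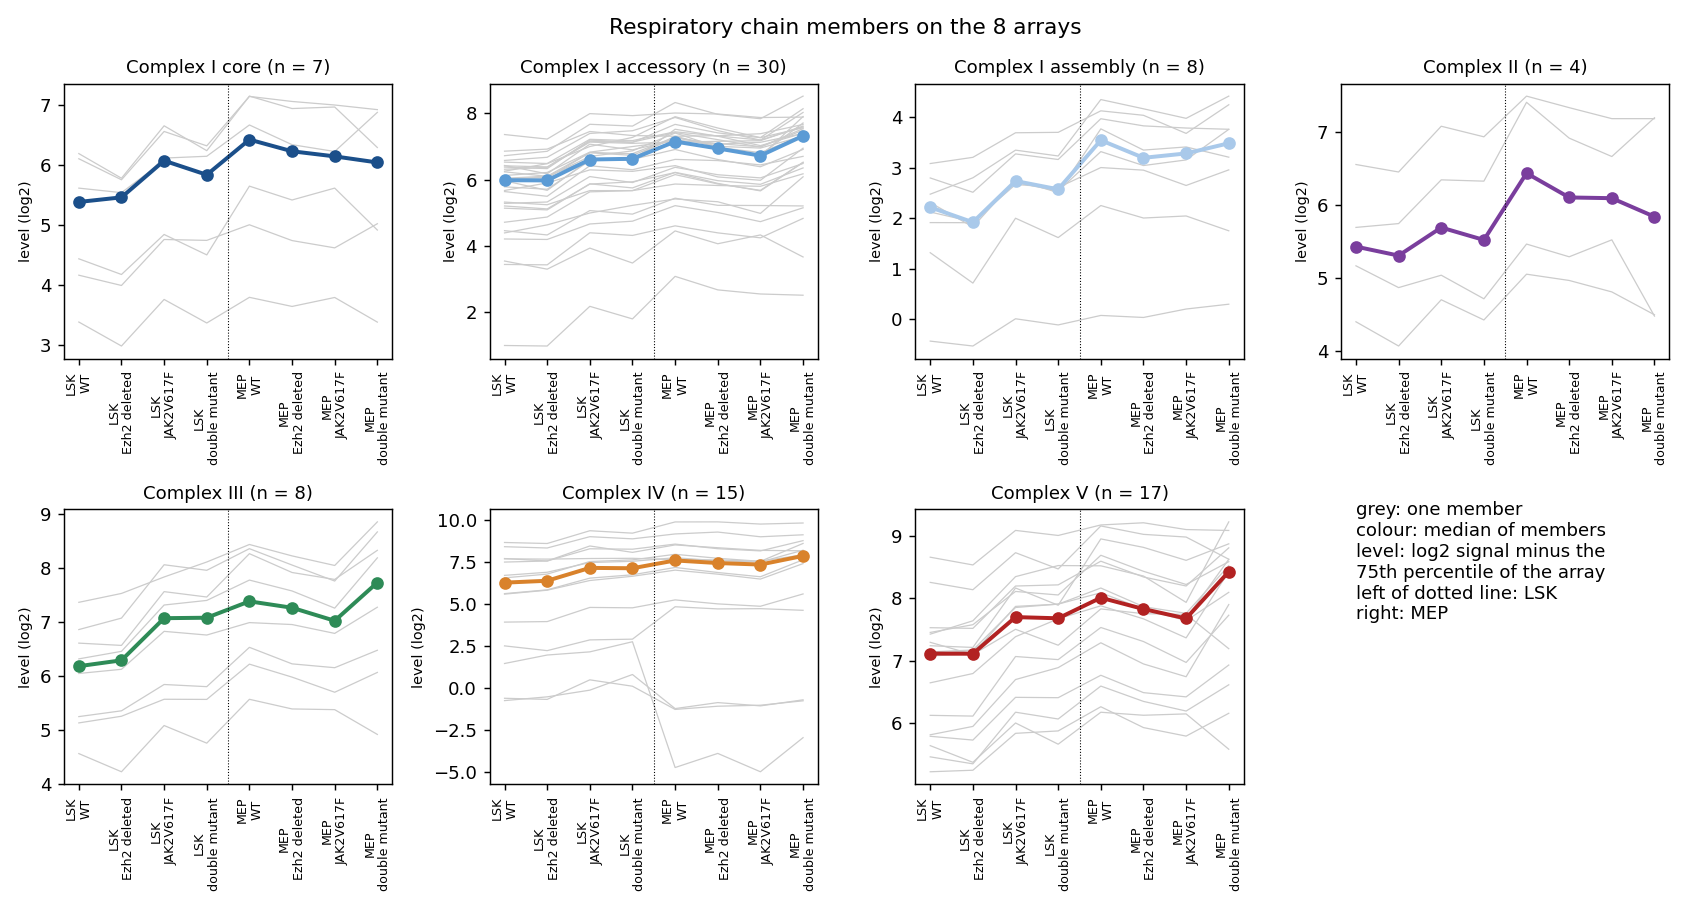
Level (log2 signal minus the 75th percentile of the array) of the members of each complex and role on the 8 arrays, with LSK left and MEP right of the dotted line. Grey lines are members and coloured lines their medians; the median of complex IV, for example, was 6.28 in WT LSK and 7.61 in WT MEP, and the line that drops in that panel is Cox6a2.

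Of complex I, which carries electrons from NADH, 26 of 45 genes were called higher in MEP (57.8%, against 20.6% of all genes) and 0 lower. At an unadjusted p under 0.05 in limma 37 of the 45 were higher, where 3655 of all 13200 genes were. The 8 assembly factors, which build the complex and are not part of it, had 6 calls and a median of 0.75. Ndufaf4 was at 2.48, 2.80, 3.35 and 3.23 in LSK and at 4.35, 4.17, 3.98 and 4.42 in MEP. All MEP arrays lay above all LSK arrays, and the difference was 1.26 (SE 0.21, adjusted p = 0.00273). Ndufaf1, which acts on the membrane arm, rose by 1.08 (SE 0.20, adjusted p = 0.00484), Ndufaf6 by 1.05 (SE 0.20, adjusted p = 0.00490) and Ndufaf7 by 0.90 (SE 0.19, adjusted p = 0.00724).

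Among the core subunits, which hold the flavin and the iron-sulfur clusters, 3 of 7 were called. Ndufs1, the large iron-sulfur subunit of the NADH arm, was at 4.43, 4.17, 4.84 and 4.50 in LSK and at 5.65, 5.41, 5.61 and 4.91 in MEP, a difference of 0.91 (SE 0.19, adjusted p = 0.00731). Every MEP array of Ndufs1 lay above every LSK array, the double mutant least. Ndufs7 rose by 0.85 (SE 0.18, adjusted p = 0.00869) and Ndufv2 by 0.75 (SE 0.22, adjusted p = 0.0292). Ndufv1, which binds NADH and the flavin, differed by 0.62 (adjusted p = 0.0521).

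The 30 accessory subunits had 17 calls, and all 30 differences were positive, from 0.28 (Ndufb11) to 1.22 (Ndufab1), though Ndufb11 and Ndufa13 turned negative with quantile normalization. Ndufab1, the mitochondrial acyl carrier protein, was at 0.99, 0.97, 2.17 and 1.79 in LSK and at 3.08, 2.67, 2.54 and 2.51 in MEP. It was lowest in the LSK arrays with wild-type JAK2, and no LSK value reached the MEP values (difference 1.22, SE 0.29, adjusted p = 0.0127). Ndufa5 was at 5.97, 5.68, 6.61 and 6.58 in LSK and at 7.52, 7.31, 7.03 and 7.40 in MEP (difference 1.11, SE 0.24, adjusted p = 0.00912). Ndufb9 rose by 0.97 and Ndufs6 by 0.95. Ndufa4, named for complex I but also found with cytochrome oxidase, differed by 0.33 (adjusted p = 0.272).

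Of complex II, the citric acid cycle enzyme that feeds coenzyme Q from succinate, 1 of 4 genes was called higher in MEP. That share of 25% is near the 20.6% of all genes. Sdhd, a membrane anchor, was at 5.70, 5.75, 6.35 and 6.33 in LSK and at 7.41, 6.92, 6.67 and 7.20 in MEP. The groups did not overlap and the difference was 1.02 (SE 0.24, adjusted p = 0.0133). Sdha, the flavoprotein that oxidizes succinate, differed by 0.24 (adjusted p = 0.327), Sdhc by 0.43 (adjusted p = 0.0972) and Sdhb by 0.54 (adjusted p = 0.0526).

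Of complex III, 6 of 8 genes were called higher in MEP (75%, against 20.6% of all genes), with a median of 0.70. Uqcr11, a small accessory subunit, was at 6.61, 6.57, 7.57 and 7.47 in LSK and at 8.27, 7.92, 7.79 and 8.33 in MEP. The 2 LSK arrays with JAK2V617F came near the MEP arrays without reaching them, and the difference was 1.03 (SE 0.25, adjusted p = 0.0144). Uqcr10 rose by 0.83, Uqcrc2, a core protein, by 0.79, and Uqcrh, the hinge protein, by 0.68. Uqcrfs1, the Rieske iron-sulfur protein that takes electrons from coenzyme Q, rose by 0.61 (SE 0.19, adjusted p = 0.0354).

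Of complex V, 7 of 17 genes were called higher in MEP (41.2%, against 20.6% of all genes). All 17 differences were positive (median 0.57). With quantile normalization the median was 0.20, Atp5g2 turned to -0.08, Atp5b was at 0.15 and Atp5a1 at 0.01. Atp5g1, Atp5g2 and Atp5g3 encode the same subunit of the c ring, the rotor through which protons pass. Atp5g1 was at 7.24, 7.21, 8.16 and 7.89 in LSK and at 8.95, 8.81, 8.61 and 8.87 in MEP, with no overlap, and rose by 1.18 (SE 0.23, adjusted p = 0.00545). Atp5g3 rose by 0.68 (SE 0.20, adjusted p = 0.0318), and Atp5g2 differed by 0.32 (SE 0.17, adjusted p = 0.158). Among the catalytic head, the beta subunit Atp5b rose by 0.55 (SE 0.19, adjusted p = 0.0483), while the alpha subunit Atp5a1 differed by 0.34 (adjusted p = 0.147) and the gamma subunit Atp5c1 by 0.48 (adjusted p = 0.0799). The small subunits Atp5md and Atp5k rose by 0.88 and 0.80.

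**Figure D2:**
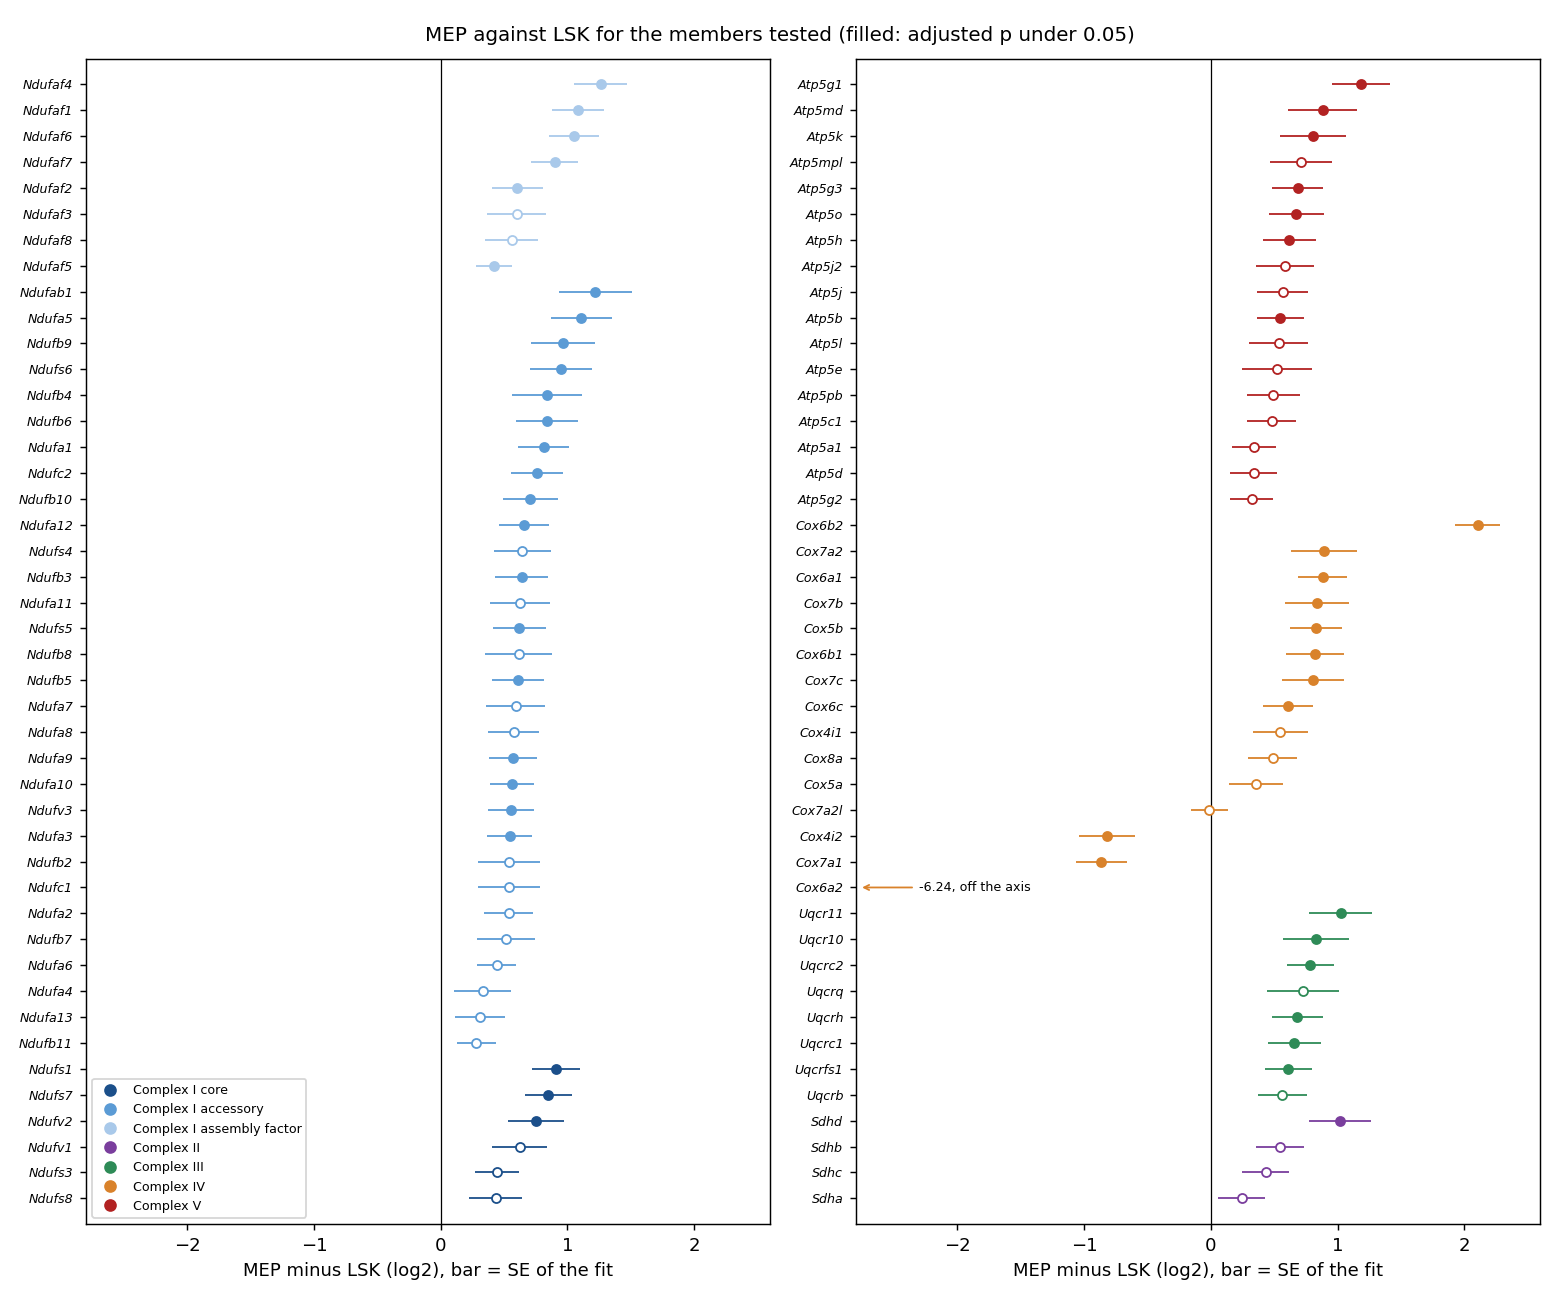
Difference between MEP and LSK (log2) with its SE for the 89 members tested, of which 1 is not shown, coloured by complex and role, with filled points for an adjusted p under 0.05. Nearly all points lie right of 0, from 0.24 for Sdha (-0.04 with quantile normalization) to 2.10 for Cox6b2; Cox7a2l is at -0.01 (0.08 with the array median subtracted), Cox4i2 and Cox7a1 lie left of 0, and Cox6a2, at -6.24, is off the axis.

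Complex IV held the members that went both ways. Of 15 members 8 were called higher in MEP (53.3%, against 20.6% of all genes) and 3 lower (20%, against 20.3%). Each isoform has its own probe, so the levels of one isoform are not set against those of another. Cox6b2, known as the testis isoform of the subunit that bridges the dimer, was at 2.51, 2.23, 2.87 and 2.91 in LSK and at 4.85, 4.72, 4.73 and 4.63 in MEP. The 4 values within each fraction lay close together and far from the other fraction, a rise of 2.10 or 4.3-fold (SE 0.18, adjusted p = 0.000108). Its ordinary counterpart Cox6b1 was at 3.93, 3.96, 4.80 and 4.78 in LSK and at 5.25, 5.02, 4.87 and 5.61 in MEP, a rise of 0.82 (SE 0.23, adjusted p = 0.0255).

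Cox6a2, known as the isoform of heart and skeletal muscle, went the other way. It was at 1.46, 1.96, 2.15 and 2.76 in LSK and not well above background on any MEP array, where it read -4.75, -3.91, -5.01 and -2.97. Against the lowest detectable signal of the MEP arrays it was at least 33-fold higher in LSK. It passed the filter through its LSK arrays alone. The measured difference of -6.24 and its call rest on MEP readings not well above background, so no p-value is given. The ubiquitous Cox6a1 was at 8.68, 8.62, 9.38 and 9.24 in LSK and at 9.91, 9.91, 9.78 and 9.84 in MEP, a rise of 0.88 (SE 0.19, adjusted p = 0.00951).

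The other isoforms lower in MEP are also tissue-restricted. Cox7a1, known from heart and muscle, was at -0.62, -0.68, 0.48 and 0.10 in LSK and at -1.28, -1.09, -1.03 and -0.77 in MEP, and fell by 0.86 (SE 0.20, adjusted p = 0.0119). Cox4i2, known from lung and from low oxygen, was at -0.76, -0.53, -0.13 and 0.80 in LSK and at -1.23, -0.88, -1.07 and -0.71 in MEP (difference -0.82, SE 0.22, adjusted p = 0.0224). For Cox4i2 the WT LSK value lay below the double mutant MEP value, so the groups overlapped, and for Cox7a1 they did not. The ordinary isoforms Cox7a2 and Cox4i1 differed by 0.89 (SE 0.26, adjusted p = 0.0293) and 0.55 (SE 0.22, adjusted p = 0.0804). Cox7a2l, an assembly factor of supercomplexes, was between 7.69 and 7.74 in LSK and between 7.56 and 7.95 in MEP, a difference of -0.01 (SE 0.15, adjusted p = 0.947). Of the remaining ordinary subunits Cox5b, Cox6c, Cox7b and Cox7c rose by 0.83, 0.61, 0.84 and 0.81, while Cox5a (0.36, adjusted p = 0.210) and Cox8a (0.49, adjusted p = 0.0779) did not pass the test.

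**Figure D3:**
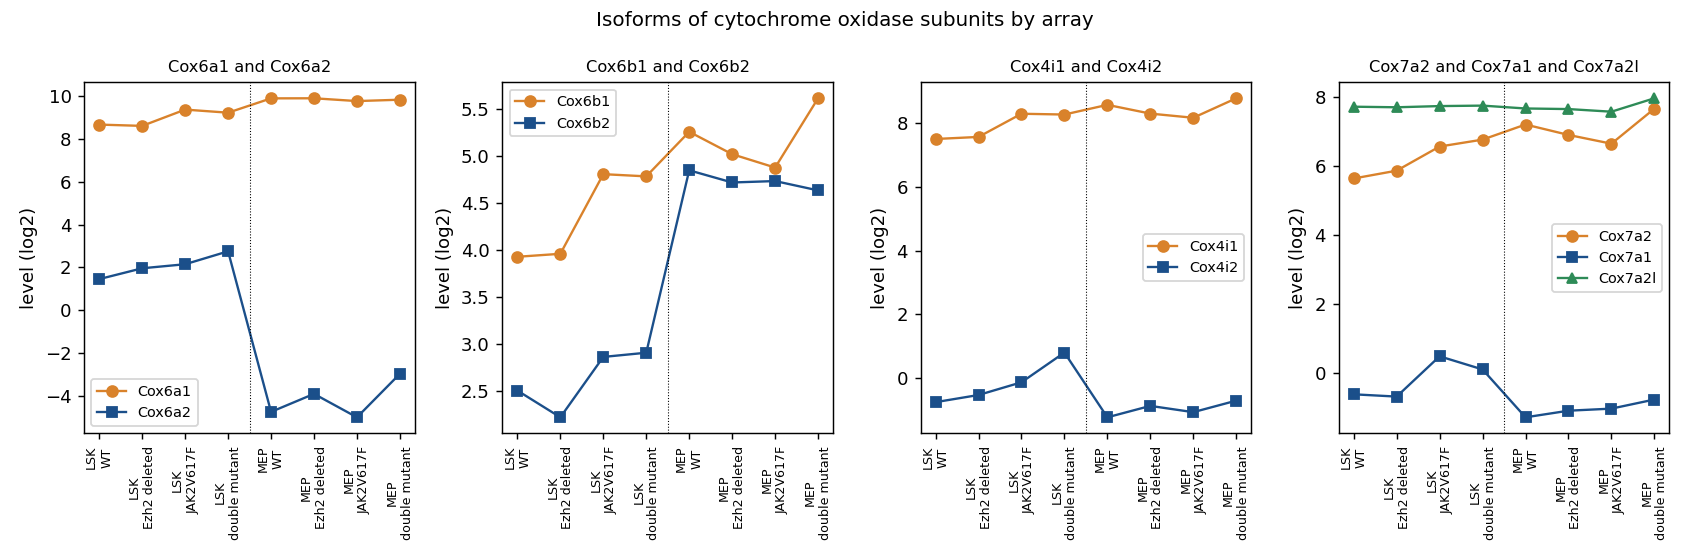
Levels (log2) of isoforms of complex IV subunits on the 8 arrays, with LSK left and MEP right of the dotted line; heights of different genes come from different probes and cannot be compared. Cox6b2 steps up from at most 2.91 to at least 4.63 and Cox6a2 steps down from at least 1.46 to at most -2.97 between the fractions, while Cox7a2l stays between 7.56 and 7.95.

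The difference between fractions was not of the same size in every genotype. Between the 2 WT arrays the median member was 1.05 higher in MEP, 85 of 89 members were higher, and 55 were at least 2-fold higher (14.8% of all genes were). Between the Ezh2Δ/Δ arrays the median was 0.88 with 28 members at least 2-fold higher (12.7% of all genes). Between the JAK2V617F arrays the median was 0.05, and 1 member was at least 2-fold higher (8.19% of all genes). In that pair 55 members were higher (61.8%, against 55.8% of all genes) and 34 lower. The medians of all genes were 0.16 in WT, 0.15 in Ezh2Δ/Δ, 0.08 in JAK2V617F and 0.01 in the double mutant. With JAK2V617F alone the members thus did not rise beyond all genes. The 1 member at least 2-fold higher between the JAK2V617F arrays was Cox6b2, at 2.87 in LSK and 4.73 in MEP. Between the double mutant arrays the median was 0.55, with 82 members higher and 5 at least 2-fold higher (7.36% of all genes). These are differences of single arrays with no test, and with quantile normalization (for these differences chosen after the data were seen) the medians were 0.55, 0.44, 0.05 and 0.29 in the same order.

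Seen by genotype, the same arrays showed members high in JAK2V617F LSK. The JAK2V617F LSK array was above the WT LSK array in 88 of 89 members, with a median of 0.67 against 0.09 for all genes, and 3 members were at least 2-fold higher (3.91% of all genes). The double mutant LSK array was above the Ezh2Δ/Δ LSK array in 88 members, with a median of 0.68. With quantile normalization these medians were 0.31 and 0.40. In MEP the JAK2V617F array was below the WT array in 83 of 89 members (median -0.36, with 0 at least 2-fold higher against 4.02% of all genes), while the double mutant was above Ezh2Δ/Δ by a median of 0.31. So the LSK pairs gave nearly equal differences and the MEP pairs opposite ones.

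Averaged over the LSK pairs, 0 members were called for JAK2V617F at an adjusted p under 0.05 in limma (0.159% of all genes were called), and 51 had an unadjusted p under 0.05, against 17.9% of all genes. In complex IV 12 of 15 had such a p, in complex I 26 of 45, in complex III 5 of 8, in complex V 7 of 17 and in complex II 1 of 4. Ndufab1 had a difference of 1.00 (SE 0.23) and Cox7a1 of 0.94 (SE 0.21), with adjusted p-values of 0.169 and 0.165. Sdha was the member that was not higher in LSK with JAK2V617F, at 5.17 in WT and 5.04 in JAK2V617F and at 4.87 in Ezh2Δ/Δ and 4.72 in the double mutant. In MEP 0 members were called (0.152% of all genes) and 0 had an unadjusted p under 0.05, against 7.94% of all genes.

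Lists of cell markers were compared on the same arrays, and they did not all move one way with JAK2V617F. The 10 granulocyte markers were all tested, and their summed level was 9.50 and 8.97 in WT and Ezh2Δ/Δ LSK. In JAK2V617F and double mutant LSK it was 11.35 and 9.94, and the granule enzyme Mpo was brightest on all 4 arrays. Their median level was 0.72 in WT, 2.71 in Ezh2Δ/Δ, 4.20 in JAK2V617F and 4.13 in double mutant LSK. The median, unlike the sum, was thus higher in Ezh2Δ/Δ than in WT LSK. Ngp and Ltf were below background in WT LSK. In MEP the granulocyte sum was 4.50 in WT and 7.30 in JAK2V617F, where the members were lower with JAK2V617F, and 5.51 in Ezh2Δ/Δ and 8.21 in the double mutant, where they were higher. The granulocyte medians in MEP were 0.45 in WT, 1.65 in Ezh2Δ/Δ, 2.55 in JAK2V617F and 3.69 in the double mutant. The 6 mast cell and basophil markers tested of 7 listed summed to 4.65 and 4.93, and with JAK2V617F to 5.66 and 5.47, and all 6 were detected on all 4 LSK arrays. The 10 stem and multipotent cell markers, all detected in LSK, had a summed level of 8.41 to 8.51 without JAK2V617F and of 7.95 in the double mutant, with the JAK2V617F array between them and Cd34 brightest on all 4. Their median level was 3.39 in WT, 3.36 in Ezh2Δ/Δ, 1.38 in JAK2V617F and 2.33 in the double mutant LSK. The 10 erythroid markers tested of 12 listed summed to 5.71 and 5.34 without and to 5.35 and 5.66 with JAK2V617F, and Rhd was detected in WT LSK and not well above background on the other LSK arrays. The 8 megakaryocyte markers summed to 5.91 and 5.87 in WT and Ezh2Δ/Δ LSK and to 6.39 and 6.30 with JAK2V617F. Their medians were 2.38 and 1.28 without and 2.03 and 1.92 with it. The 5 T and NK cell markers tested of 8 listed, with Nkg7 brightest, summed to 5.96 and 5.23 without and to 6.66 and 5.88 with JAK2V617F. The B cell sums went both ways, from 4.09 to 4.33 with Ezh2 intact and from 6.18 to 4.45 with Ezh2 deleted. The part of other cells in the respiratory chain values was not tested.

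Averaged over all 4 pairs, 0 members were called for JAK2V617F (0.311% of all genes were), and 5 had an unadjusted p under 0.05, against 11% of all genes. All 5 were higher: Ndufb11, Ndufa3, Ndufaf6, Cox7a1 and Cox4i2. The median was 0.33, against 0.01 for all genes, and 86 members were positive. With quantile normalization the median was 0.20 and 13 members changed sign. Cox7a1 was higher with JAK2V617F in all 4 pairs (0.62, SE 0.20, adjusted p = 0.340), and so were Cox4i2 (0.57, SE 0.22, adjusted p = 0.419), the accessory subunits Ndufa3 (0.51, SE 0.18, adjusted p = 0.364) and Ndufb11 (0.36, SE 0.15, adjusted p = 0.451), and the assembly factor Ndufaf5 (0.31, SE 0.14, adjusted p = 0.478).

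Whether the JAK2V617F effect differed between fractions was tested directly. The effect in MEP minus that in LSK was negative in 88 of 89 members, with a median of -0.69 against -0.12 for all genes. In limma 0 members were called, as was 0% of all genes, and 18 members had an unadjusted p under 0.05, against 11.5% of all genes. The lowest adjusted p was 0.322, for Ndufab1 (-1.35, unadjusted p = 0.00672). On simulated data this fit found 1 of 40 genes that differed by 3 and 26 of 40 that differed by 6. The simulated noise was the spread of all genes around the additive fit, which counts an interaction as spread. These rates therefore do not carry over to the members (the SE of Ndufab1 here was 0.32). The absence of calls does not show that the effect was equal in the fractions.

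**Figure D4:**
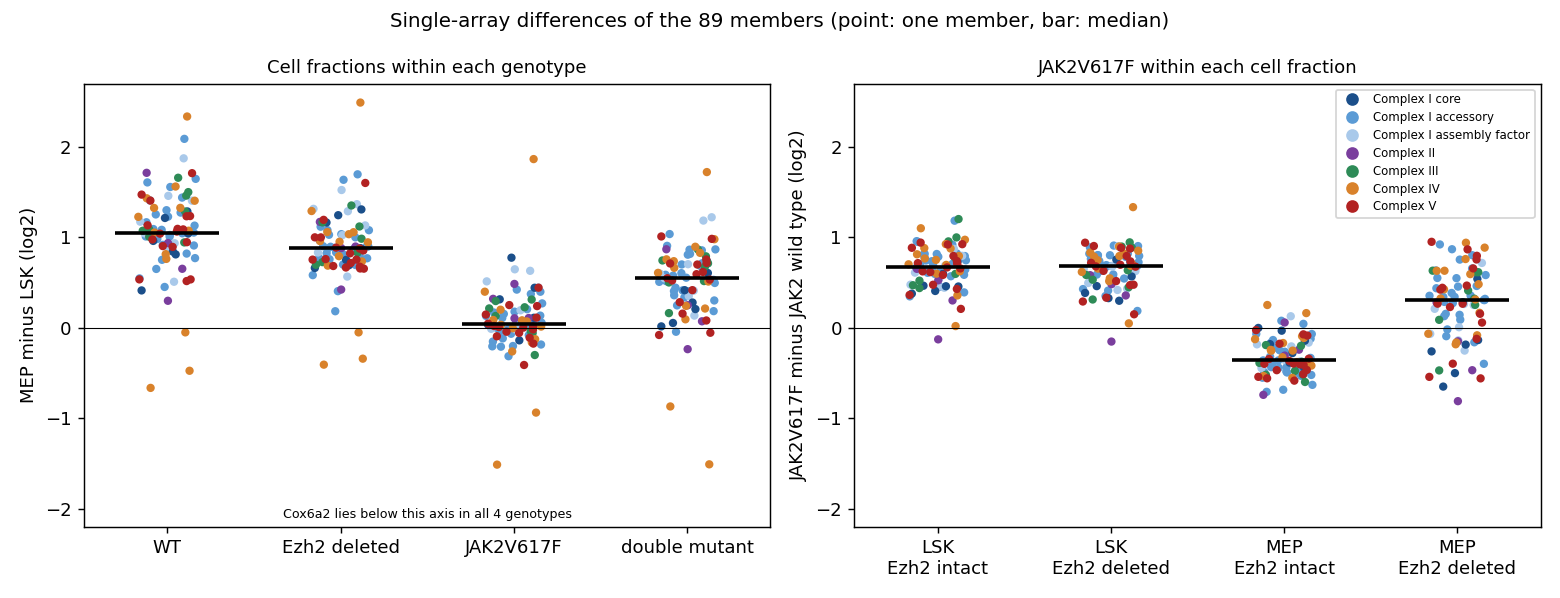
Left, MEP minus LSK (log2) within each genotype, and right, JAK2V617F minus wild-type JAK2 within each fraction and Ezh2 status; each point is 1 of the 89 members on a pair of single arrays, coloured by complex, and bars are medians. The left medians are 1.05, 0.88, 0.05 and 0.55, and the right ones 0.67 and 0.68 in LSK and -0.36 and 0.31 in MEP; both panels use the same arrays.

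With Ezh2 deletion 0 members were called in limma (0.712% of all genes were), and 3 had an unadjusted p under 0.05, against 18.1% of all genes. The median was 0.05, against -0.09 for all genes, and it turned to -0.03 without WT LSK, -0.02 without double mutant LSK and -0.14 without JAK2V617F MEP. By count, 18 members were lower in all 4 pairs (3448 of 13200 genes were) while 2 were higher in all 4 (1488 genes were). Cox6a2 is among the 3 and among the 2, but its MEP readings are not well above background, so only its LSK values are used. There it was at 1.46 in WT and 1.96 in Ezh2Δ/Δ, and at 2.15 in JAK2V617F and 2.76 in the double mutant, a difference of 0.56 (SE 0.32, adjusted p = 0.661). Cox4i2 was the other member higher in all 4 pairs (0.47, SE 0.22, adjusted p = 0.302). The summed B cell markers, of which 7 of 9 were tested, also differed: 4.09 and 4.33 in LSK and 1.71 and 1.57 in MEP with Ezh2 intact, 6.18 and 4.45 in LSK and 5.72 and 2.82 in MEP with Ezh2 deleted. All 7 were detected in both Ezh2Δ/Δ fractions, and their part was not tested.

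By role the Ezh2 differences were uneven. Of all 13200 genes 3448 were lower in all 4 pairs, and of the 89 members 18 were. Of the 7 complex I core subunits 5 were lower in all 4 pairs (median -0.19), and of complex II 2 of 4 were (median -0.18), whereas 3 of 30 accessory subunits were (median 0.06). Subtracting each array's median over the tested genes moved these medians to -0.08, -0.06 and 0.17. Sdha was at 5.17 in WT and 4.87 in Ezh2Δ/Δ LSK, at 5.04 and 4.72 in the JAK2V617F and double mutant LSK, at 5.47 and 5.30 in WT and Ezh2Δ/Δ MEP, and at 5.53 and 4.48 in JAK2V617F and double mutant MEP. Its difference was -0.46 (SE 0.19, adjusted p = 0.268), and the widest gap was in the MEP with JAK2V617F. Ndufa10 (-0.44, SE 0.17, adjusted p = 0.264) and Ndufs1 (-0.38, SE 0.19, adjusted p = 0.313) were also lower in all 4 pairs. Complex III was positive in 7 of 8 members (median 0.09), with its core protein Uqcrc1 at -0.33, and complex V in 11 of 17 (median 0.04), with Atp5a1 (-0.27), Atp5b (-0.22) and Atp5d (-0.30) lower in all 4 pairs. None of these passed the adjusted threshold, and a difference between core and accessory subunits was not tested. The 3 members on the X chromosome had Ezh2 differences of 0.08 (Ndufa1), 0.06 (Ndufb11) and 0.29 (Cox7b).

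The double mutant MEP array held the highest value of 52 of the 89 members, where it held that of 16.6% of all genes. It was above the JAK2V617F MEP array by a median of 0.42, against -0.14 for all genes. That median was 0.47 for the accessory subunits, 0.51 for complexes III and IV and 0.45 for complex V, but -0.10 for the complex I core and -0.16 for complex II. Atp5e, a small subunit of the ATP synthase stalk, was at 7.93 in JAK2V617F MEP and 9.22 in the double mutant, whereas Sdha was at 5.53 and 4.48. The granulocyte markers summed to 8.21 on this array and to 4.50, 5.51 and 7.30 in WT, Ezh2Δ/Δ and JAK2V617F MEP, and the erythroid markers to 8.69, against 9.62, 9.20 and 9.24. The part of these cells was not tested, and these are single arrays with no test.

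Neither interaction gave a call among the members. For the difference of the Ezh2 effect between fractions 0 members were called, against 0.00758% of all genes, and 0 had an unadjusted p under 0.05, against 5.37% of all genes. For the dependence of the Ezh2 effect on JAK2V617F 0 members were called, as was 0% of all genes, and 0 had an unadjusted p under 0.05, against 3.48% of all genes. The median of this interaction was 0.28 for the members and -0.08 for all genes.

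**Figure D5:**
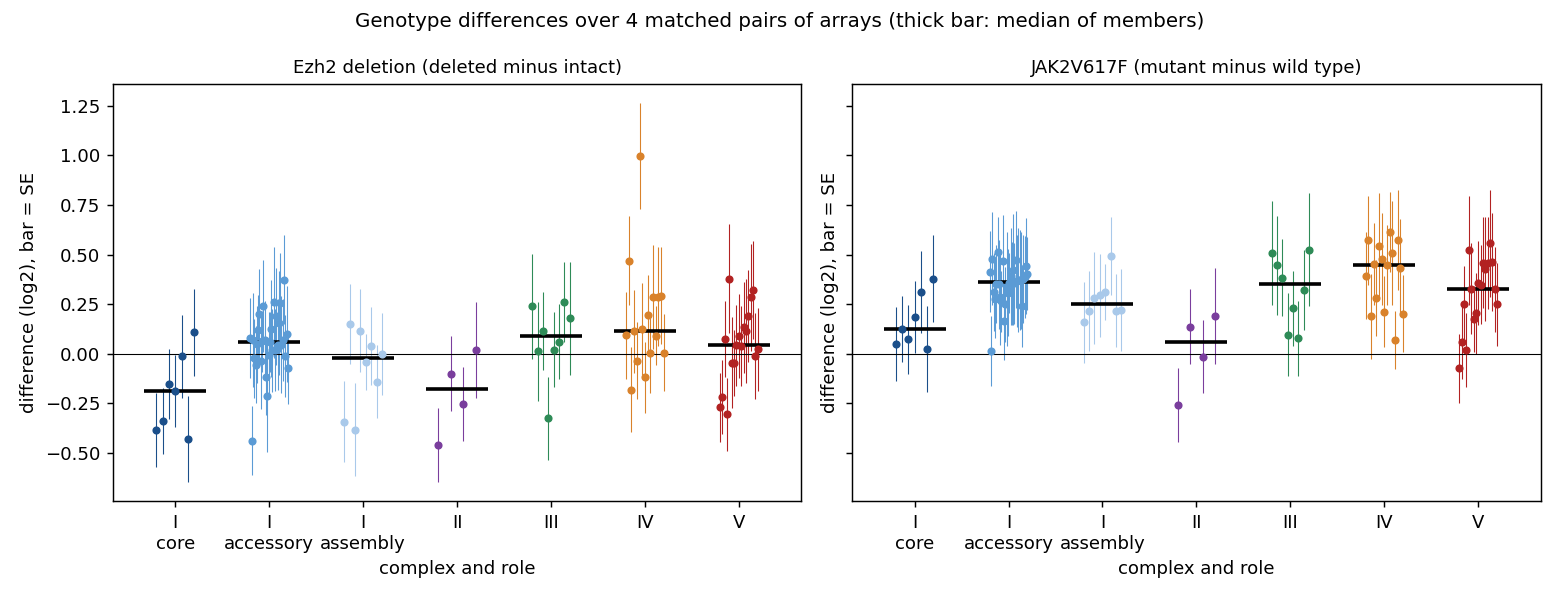
Effect of Ezh2 deletion (left) and of JAK2V617F (right) in log2 for every member by complex and role, averaged over 4 matched pairs of arrays with its SE; thick bars are medians. On the left the bars of the complex I core (-0.19), complex II (-0.18) and the assembly factors (-0.02, but 0.05 with quantile normalization) lie below 0 and the point at 1.00 is Cox6a2, whose MEP readings are not well above background; on the right all bars lie above 0, from 0.06 for complex II (-0.06 with quantile normalization) to 0.45 for complex IV, and no member passed the adjusted threshold on either side.

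Other mitochondrial genes, taken from lists by function, were also tested. For comparison, 20.6% of all genes tested were called higher in MEP and 20.3% lower. Cytochrome c (Cycs) and the complex III subunit cytochrome c1 (Cyc1), which the name rule leaves out, rose by 0.77 (SE 0.25, adjusted p = 0.0418) and 1.00 (SE 0.24, adjusted p = 0.0141). Of 39 further assembly factors of the chain 19 were called higher and 0 lower, among them the copper chaperone Cox11 (1.05) and the haem enzyme Cox10 (0.84). Of 12 coenzyme Q synthesis genes 5 were higher (Coq7 0.94) and 1 lower (Coq8a -0.71). Of 17 genes of the citric acid cycle and pyruvate dehydrogenase 10 were higher and 0 lower, with Idh3a at 0.86.

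The genes that make mitochondrial proteins showed the same direction, again beside 20.6% called higher and 20.3% called lower among all genes. Of 77 mitochondrial ribosomal proteins 49 were called higher and 0 lower (median 0.70), led by Mrpl52 (1.67, SE 0.20, adjusted p = 0.000594). Of 14 genes of mitochondrial DNA and transcription 7 were higher, among them Tfam, which packages mitochondrial DNA (0.70), and Lrpprc, which stabilizes its transcripts (0.82). Among 11 regulators of mitochondrial biogenesis 0 were called higher and 2 lower: Gabpb1, a subunit of the ETS factor GABP (-0.84), and Ppard (-0.83). The subunits encoded by mitochondrial DNA were not among the genes tested.

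Glycolysis was mixed. Of 24 genes 4 were called higher in MEP and 9 lower, with a median of -0.39. Of all genes 20.6% were called higher and 20.3% lower. Pklr, the pyruvate kinase of liver and red cells, was below background on all LSK arrays and at least 17.9-fold higher in MEP. Its call rests on those LSK readings, so no p-value is given. Pkm, the pyruvate kinase of most tissues, was 7.89-fold lower (adjusted p = 2.93e-05). Hk3, a hexokinase detected on 2 of 4 MEP arrays, was lower in MEP by at least 31.1-fold, and Ldhb, a lactate dehydrogenase subunit, was 8.64-fold lower, while Hk1 and Eno3 rose by 1.01 and 1.35.

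For the genotypes the metabolic lists, which here include 20 cell cycle genes, gave 0 calls in limma among 238 genes. Ezh2 deletion had 28 of these genes below an unadjusted p of 0.05, and JAK2V617F had 5. Both were smaller shares than among all genes, where 18.1% and 11% lay below it. For JAK2V617F within LSK, 73 of the 238 genes lay below it, against 17.9% of all genes. Of these 73, 39 were mitochondrial ribosomal proteins. The mitochondrial ribosomal proteins, like the members, were higher with JAK2V617F in LSK (median 0.61, 77 of 77 positive) and not in MEP (median -0.15, 15 of 77 positive). With Ezh2 deletion 39.6% of all genes had a positive difference (median -0.09). The citric acid cycle genes were positive in 1 of 17 cases (median -0.24), the glycolysis genes in 3 of 24 (median -0.26), the cell cycle genes in 2 of 20 (median -0.32) and the biogenesis regulators in 1 of 11 (median -0.22).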

How the data were processed

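Cy3-labelled material from 20 ng of RNA per group was read on one-colour Agilent arrays, 8 in all. All arrays lay on 1 slide, with the cell fraction as row and the genotype as column, so position and group cannot be told apart. Per the file headers, Feature Extraction 10.7.1.1 made the deposited intensity values, background-subtracted and not normalized between arrays. A linear ratio per probe, from the table the authors deposited for the series, served as an alternative, and the deposited per-spot detection flags set the filter.

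Replicate spots of 1 probe gave 1 mean signal, and log2 values were expressed relative to the 75th percentile of each array. Of 55681 probes 27509 matched a gene of the RefSeq table (GRCm38.p6), and the brightest probe stood for the gene. limma 3.58.1 (R 4.3.3) fitted fraction, Ezh2 deletion and JAK2V617F additively, and, in further fits, the genotype effects within each fraction (2 residual degrees of freedom before moderation) and their product. A gene with a group below background has a fold against the lowest signal well above background, given as at least that fold. Calls had a Benjamini-Hochberg adjusted p under 0.05. Differences between genotypes and between list medians had no test of their own unless one is given. The number of arrays limits the precision.

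On simulated data of 13200 genes, of which 200 were changed, the additive fit was tried for each effect. For MEP against LSK it recovered 1 of 40 genes at a log2 change of 0.5, 20 at 1 and 37 at 2, with 9 false calls. In the data far more genes differed between MEP and LSK (2714 were called higher), which makes the adjusted threshold easier to pass. These MEP rates therefore do not carry over, and Ndufaf5, for example, was called at 0.42. For JAK2V617F it recovered 17 of 40 at 1, and for Ezh2 deletion 18.

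Members, gene lists and tests were chosen with earlier results of these data known. The rule for naming took up to 4 called members each way per complex for the fractions, all called lower, the 6 lowest unadjusted p for each genotype among members moving one way in all 4 pairs (for JAK2V617F 5 qualified, and 1 for Ezh2 deletion is not reported here), the isoforms of a subunit, and up to 3 genes each way per list. Other members named beside these, such as Sdha in the fractions, Atp5a1, Atp5c1, Atp5d, Atp5e, Uqcrc1 and Ndufv1, were chosen after their values were seen. The 12 metabolic lists were cytochrome c and c1, assembly factors, coenzyme Q, mitochondrial DNA and transcription, biogenesis regulators, mitochondrially encoded subunits, citric acid cycle, glycolysis, hypoxia, mitochondrial ribosome, oxidant defence and cell cycle. There were 7 lists of cell markers: erythroid, stem, megakaryocyte, granulocyte, B cell, T and NK cell, and mast cell. Alternatives were other background corrections, scalings, filters, probe rules and variance priors, genotype as 4 levels, an adjusted p under 0.10, and leaving out each array. The normexp correction started from median rather than mean spot signals.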

Additional observations from a re-analysis of the deposited data

How the results depend on the processing

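Of the 51 members called between MEP and LSK, 21 were called under all 12 other settings and 14 also with any array left out. The count was 23 with quantile normalization, and 14 to 74 with 1 array left out. Counts under the remaining settings were 36 with genotype as 4 levels, 45 without a filter on dim probes and at most 74 (adjusted p under 0.10). Medians of complexes moved by more than the mean spread of a single member between arrays in 3 of 260 cases. All were with quantile normalization in MEP against LSK: complex III to 0.36, complex IV to 0.24 and complex V to 0.20. This yardstick is wide for a median over many genes, and the fall of complex II from 0.49 to 0.21 is not counted by it. Under quantile normalization the median single-array difference fell to 0.55 in WT and 0.44 in Ezh2Δ/Δ. That setting moved the median of all genes for MEP against LSK from 0.12 to 0.01, and subtracting the array median moved that for Ezh2 deletion from -0.09 to 0.02. The JAK2V617F median of complex II turned to -0.06 with quantile normalization. The Ezh2 median ranged from -0.14 to 0.21 with 1 array left out. The counts for Ezh2 deletion, JAK2V617F and the interactions were 0 under all alternatives run. Genotype as 4 levels sets MEP against LSK within each genotype, as matched pairs of arrays, and 16 of the 51 calls were lost there. The causes were not tested.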

Other observations

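Genes of other lists gave further differences between the fractions. Among all genes 20.6% were called higher in MEP and 20.3% lower. Of 9 genes of mitochondrial oxidant defence and uncoupling 5 were called higher in MEP and 0 lower in limma, led by the thioredoxin reductase Txnrd2 (1.41, SE 0.16, adjusted p = 0.000439) and the peroxide-removing enzymes Prdx3 (1.14, SE 0.20, adjusted p = 0.00331) and Gpx4 (0.96, SE 0.22, adjusted p = 0.0120). Of 13 genes of hypoxia and of the diversion of pyruvate 1 was higher, the mitophagy receptor Bnip3l (0.73), and 5 were lower. Among those Egln3, a prolyl hydroxylase, was lower by at least 30.7-fold, Meis1 fell by 1.37 and Vegfa by 1.18. Of 20 cell cycle genes 1 was called higher, Mki67 (0.52) and the median of the list was 0.24.

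Marker lists went with the fractions. All 10 erythroid markers were called higher in MEP and 9 of 10 stem and multipotent markers lower. Of 8 megakaryocyte markers 3 were higher and 1 lower, of 10 granulocyte markers 5 were higher and 4 lower, of 7 B cell markers 2 were lower, of 5 T and NK cell markers 3 were lower, and of 6 mast cell and basophil markers 5 were lower. The megakaryocyte markers summed to 8.29 and 8.90 in WT and Ezh2Δ/Δ MEP and to 6.96 and 6.79 in JAK2V617F and double mutant MEP.

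Of 23 members with several probes, 19 had MEP differences that lay within 0.15 of each other. Signs differed between probes for MEP against LSK in Cox7a2l, Ndufb11 and Ndufv3, for Ezh2 deletion in Cox8a and Ndufaf4, and for JAK2V617F in Ndufv3 and Sdhc. The RefSeq table names 19 pseudogenes after members, whose transcripts the probes may also read.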
